A study of Mus musculus with 6 samples.

Results

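Respiratory complex I is described here through 54 genes whose symbol starts with Nduf or mt-Nd, of 26771 genes listed in the deposited tables. They were measured in splenic γδT17 cells (interleukin-17-producing γδ T cells) of C57BL/6 TCRβ-/- mice, which lack αβ T cells. Induced cells came from splenocytes cultured by a protocol that rests on IL-23 and IL-1β, were taken on day 8 and were purified with a Pan T cell isolation kit. Initial cells were sorted from uncultured splenocytes; how they were gated is not stated in the labels. Each group held 3 libraries of polyadenylated RNA, from mice A, B and C, so each mouse gave an Induced and an Initial library. All cells shared the strain and the TCRβ-/- genotype, and culture and purification method changed together between the groups.

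The 54 genes fall into 7 nuclear core subunits, 29 nuclear accessory subunits, 8 assembly factors named Ndufaf and 7 mt-Nd genes of the mitochondrial genome. The other 3 were counted apart: Ndufa4, now known as a protein of complex IV, its relative Ndufa4l2, and the pseudogene Ndufab1-ps. In complex I the core subunits take electrons from NADH, pass them along iron-sulfur clusters to ubiquinone and pump protons across the inner mitochondrial membrane. The accessory subunits, all nuclear, surround and stabilise that core, and the assembly factors bind only intermediates and leave the finished enzyme. Because the pumping core is encoded in the mitochondrion and the electron-carrying core in the nucleus, the enzyme needs transcripts from both genomes, and proliferating cells, T cells among them, are known to use it to regenerate NAD+.

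Promoter sequences are shown for 4 of the 7 complex I genes whose promoter holds the palindrome bound by NRF-1, a transcription factor known for driving respiratory chain genes. The 4 were picked after their values were seen, 3 that rose in Induced cells and Ndufb4, which did not pass the test, so the choice says nothing of how often such genes rose. The letters searched were GCGC, then A, then any base, then GCGC, on both strands, in the 250 bases before the RefSeq start of each gene in GRCm38.p6. The stretch printed is the 120 bases next to the start, 5′ to 3′ on the gene's strand, with each match in capitals.
Ndufs5, chr4:123718187-123718306, minus strand: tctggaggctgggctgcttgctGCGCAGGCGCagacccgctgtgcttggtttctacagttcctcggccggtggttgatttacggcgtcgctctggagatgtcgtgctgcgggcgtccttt
Ndufs6, chr13:73328483-73328602, minus strand: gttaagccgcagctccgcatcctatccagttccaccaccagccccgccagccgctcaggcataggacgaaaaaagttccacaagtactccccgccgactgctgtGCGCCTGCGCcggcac
Ndufa11, chr17:56717642-56717761, plus strand: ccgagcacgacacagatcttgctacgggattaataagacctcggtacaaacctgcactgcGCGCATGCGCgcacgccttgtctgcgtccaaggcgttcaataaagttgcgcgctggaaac
Ndufb4, chr16:37654369-37654488, minus strand: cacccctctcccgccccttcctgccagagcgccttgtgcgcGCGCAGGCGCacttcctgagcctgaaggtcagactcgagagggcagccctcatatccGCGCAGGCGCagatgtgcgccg
The match began 98 bases before the start in Ndufs5, 16 bases in Ndufs6 and 60 bases in Ndufa11. The GENCODE annotation of GRCm38 starts Ndufs6 at 73328542 and Ndufb4 at 37654453, on the minus strand. By those starts, the matches printed for Ndufs6 and Ndufb4 lie inside the annotated gene. Of the nuclear genes, 40 matched a RefSeq promoter, and 7 of them, or 17.5%, held the letters in the 250 bases, against 4.23% of 27025 promoters. The 7 were Ndufa5, Ndufa8, Ndufa11, Ndufaf4, Ndufb4, Ndufs5 and Ndufs6. Of these, Ndufa8, Ndufa11, Ndufs5 and Ndufs6 passed the test below with higher levels in Induced cells and Ndufa5, Ndufaf4 and Ndufb4 did not pass it. By the same test 57.7% of tested complex I genes and 37.3% of all tested genes rose. Whether the letters bear on the calls was not tested. The letters CCGGAAG, a site type of ETS factors such as GABP, stood in 5 of the 40 promoters, or 12.5%, against 7.83% of all promoters. They were those of Ndufaf1, Ndufaf8, Ndufb6, Ndufb7 and Ndufs3. A match describes the letters only.

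Levels are FPKM, fragment counts divided by transcript length and library size, so that levels of different genes can be compared per length. Means carry the SD over 3 libraries, and fold changes are limma estimates on the log2(FPKM + 1) scale, Induced over Initial, with their standard error (SE). A gene is said to have risen or fallen at an adjusted p under 0.05 with Benjamini-Hochberg adjustment over all tested genes. Estimated depth was 20900000 to 23100000 fragments in Induced libraries and 18700000 to 22700000 in Initial libraries. Counting error alone then gave the tested complex I genes a coefficient of variation of 0.992 to 12.4%, median 4.14%, with mt-Nd4l the least precise.

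The groups were not alike in cell content. Summed FPKM of 10 macrophage and monocyte markers was 2.21 to 3.68 in Induced libraries, against 539 to 1043 in Initial libraries, and all 10 fell. For 7 red cell markers it was 1.17 to 1.64 in Induced libraries, against 1220 to 1745 in Initial libraries; all 7 fell, and Alas2, an enzyme of haem synthesis in red cell precursors, was listed at 0 in all Induced libraries. For 9 B cell markers it was 102 to 171 in Induced libraries, against 464 to 529 in Initial libraries, of which 7 fell, Blk rose and Pax5 was not tested. Blk made up most of the Induced sum, with 109.5, 113.5 and 73.0 FPKM in Induced A, B and C. In Initial A, B and C it measured 21.2, 20.9 and 21.9 FPKM, so the other markers differed more than the sum. Summed FPKM of 3 natural killer cell markers was 19.1 to 77.5 in Induced libraries, against 104 to 116 in Initial libraries, and 2 of the 3 fell. Summed T cell markers were 1837 to 2012 in Induced libraries and 2011 to 2202 in Initial libraries, and of the 8 markers Thy1 rose (0.57), the CD3 chains Cd3e (-0.53) and Cd3d (-0.47) fell, and 5 did not pass the test. Trdc, the constant segment of the δ receptor chain and 1 of those 5, measured 357, 349 and 299 FPKM in Induced cells, against 327, 320.5 and 335 FPKM in Initial cells. Because Cd3e and Cd3d fell, the scaling to the CD3 chains and Trdc used below raises Induced relative to Initial values. Of 8 γδT17 markers, 5 rose, Il17f and Ccr6 fell, and Il17a did not pass the test. The part of these other cells in the values below was not tested. In bulk RNA, fewer cells of a type and less RNA per cell cannot be told apart.

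Libraries of mouse C stood apart in both groups, for this enzyme and for some genes outside it. Induced C was the highest of its group for 30 of the 36 nuclear subunits, and Initial C was the highest of its group for 34 of the 36. The lowest was library B for 22 of the 36 in Induced cells and for 24 of the 36 in Initial cells. Median deviations of the 36 from their group mean were -0.03, -0.04 and 0.08 in Induced A, B and C and -0.04, -0.12 and 0.17 in Initial A, B and C, while those of all tested genes stayed within 0.02 of 0. Outside complex I, mt-Co3 and Got2 were likewise highest in library C of both groups. In that order they measured 474.5 and 125 FPKM in Induced C and 462 and 62.6 FPKM in Initial C. Others were not, such as mt-Co1, lowest of its group in Induced C, and Sdha, lowest of its group in Initial C. Initial C also had the lowest macrophage marker sum of its group, 539 against 1043 in Initial A and 869 in Initial B. Induced C had the highest natural killer marker sum of its group, 77.5 against 29.9 in Induced A and 19.1 in Induced B. Eomes and Klrb1c carried that sum, with 46.7 and 30.6 FPKM in Induced C. The third marker, Ncr1, did not follow it, with 0.22, 0.03 and 0.11 FPKM in Induced A, B and C. Induced C also had the lowest sum of γδT17 markers, 180 against 274 and 300, and of B cell markers, 102 against 171 and 159. Blk was part of that B cell difference, with 73.0 FPKM against 109.5 and 113.5 FPKM. What sets mouse C apart was not tested.

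**Figure D1:**
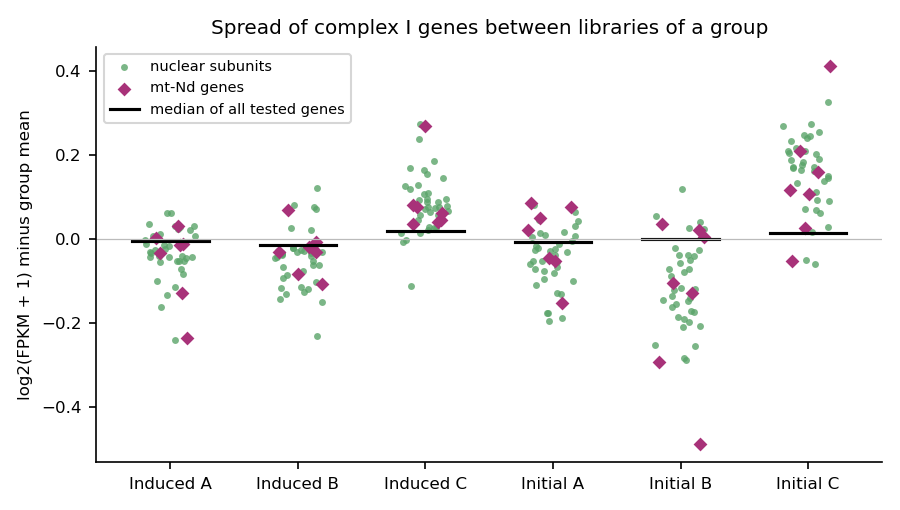
Deviation of log2(FPKM + 1) from the mean of the gene's own group, by library: small points are the 36 nuclear subunits, diamonds the 7 mt-Nd genes, and black bars the median of all tested genes. The points of mouse C lie mostly above 0 in both groups, with a median of 0.08 in Induced C and 0.17 in Initial C, while the bars stay within 0.02 of 0.

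Most transcripts of nuclear subunits were higher in Induced than in Initial cells by less than a doubling, and 1 of the 7 mt-Nd transcripts was. Of the 52 complex I genes tested, 30 rose, 2 fell and 20 did not pass the test. That makes 57.7% higher, where 37.3% of all 11265 tested genes rose and 33.1% fell, 70.4% in all. The median fold change of the 52 was 0.29, against 0.03 over all tested genes. The 3 Induced values lay above all 3 Initial values in 32 of the genes and below them in 2, where this held for 40.0% and 35.4% of all tested genes, 75.4% in all. Ndufa4l2 and Ndufab1-ps did not reach an FPKM of 1 in 3 libraries and were not tested. Ndufs5 alone of the 52 at least doubled on that scale past the threshold, as did 1348 of all tested genes. Without Initial C, 35 rose and 2 fell, and without Induced C, 28 rose and 3 fell. The split between rises and falls depends on what is held equal: when CD3 chains and Trdc set the scale of each library, 66.8% of all calls were rises, against 52.9% as deposited. That scaling shifted the median of all genes by 0.21 on the log2 scale and left the complex I median 0.28 above it, against 0.27 as deposited. Other settings moved this excess more. It was 0.199 with the trend with transcript length removed, a setting described below, and 0.203 with quantile normalization. Without Initial B it was 0.211, and it was highest, 0.314, with no filter on low values.

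**Figure D2:**
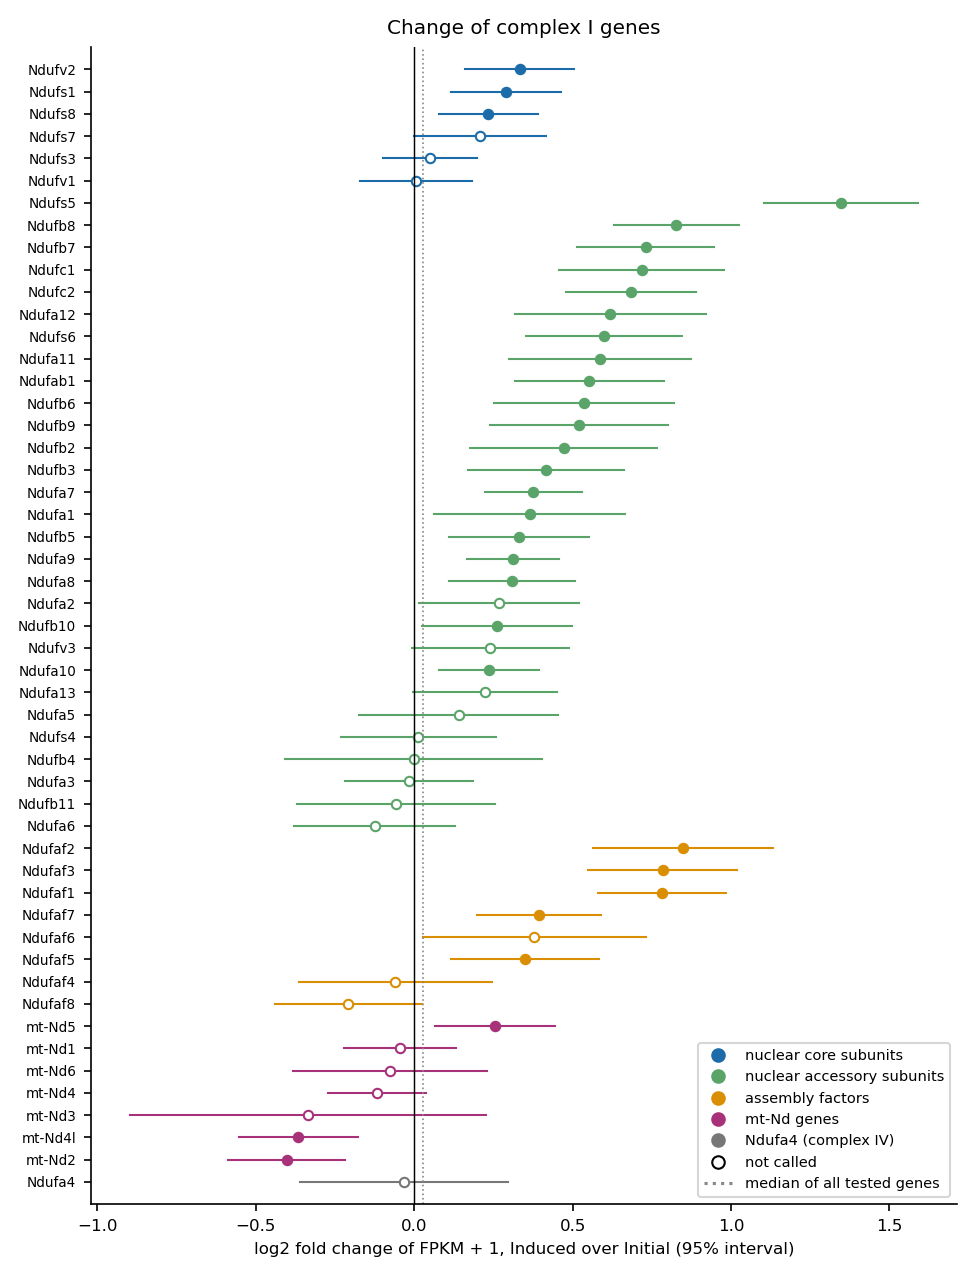
Log2 fold change (Induced over Initial) of 51 tested complex I genes, each with its 95% interval, coloured by class; filled points passed an adjusted p under 0.05, open points did not, and the dotted line is the median of all tested genes at 0.03. Ndufs5 stands farthest right at 1.35, and all mt-Nd genes except mt-Nd5 lie left of 0 as deposited, while with scaling to the CD3 chains and Trdc 2 of the 7 rose and 0 fell.

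Among the 7 nuclear core subunits, which carry the electrons, 4 rose (57.1%), none fell and the median fold change was 0.23, where 37.3% of all tested genes rose and 33.1% fell. The 6 described below, from the N module at the tip of the enzyme and the Q module beneath it, differed by less than 1.3-fold in either direction.

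The N module is the tip of the complex where NADH is oxidised. Ndufv2, which holds an iron-sulfur cluster beside the entry point, measured 54.0, 54.8 and 62.1 FPKM in Induced A, B and C, against 44.2, 43.8 and 46.9 FPKM in Initial A, B and C. The groups did not overlap, and the fold change was 0.33 (SE 0.07, adjusted p = 0.00422). Ndufs1, the largest subunit of the N module and carrier of several clusters, measured 66.3, 65.6 and 71.7 FPKM in Induced cells, against 53.0, 60.1 and 53.0 FPKM in Initial cells. Again every Induced value lay above every Initial value, and the fold change was 0.29 (SE 0.07, adjusted p = 0.00859). Ndufv1, the subunit that binds NADH and its flavin, measured 59.6, 58.0 and 68.6 FPKM in Induced cells, against 62.0, 60.7 and 62.4 FPKM in Initial cells. Here the groups overlapped, and the difference of 0.01 had a 95% interval of -0.17 to 0.18 (adjusted p = 0.955). Ndufv1 and Ndufv2, neighbours in the enzyme, thus gave means of 62.1 and 57.0 FPKM in Induced cells and 61.7 and 45.0 FPKM in Initial cells.

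The Q module passes electrons to ubiquinone. Ndufs8, a ferredoxin-like subunit with a pair of clusters, measured 47.7, 50.4 and 50.5 FPKM in Induced cells, against 40.0, 41.2 and 44.8 FPKM in Initial cells. Its groups were apart, with a fold change of 0.23 (SE 0.07, adjusted p = 0.0145), a call lost without Induced B (0.22, adjusted p = 0.0504), with scaling factors of the TMM kind (0.16, adjusted p = 0.0562) and after removal of the trend of fold change with transcript length over all genes, a setting added after the data were seen (0.08, adjusted p = 0.259). Ndufs7 holds the last cluster before ubiquinone. It measured 53.6, 53.6 and 58.7 FPKM in Induced cells, against 47.1, 43.0 and 53.5 FPKM in Initial cells. Its lowest Induced value exceeded its highest Initial value by less than the spread within either group, and 0.21 (SE 0.09) did not pass the test without the mouse as a block (adjusted p = 0.0694) but did with it, and also without Initial C (0.29, adjusted p = 0.0153). Ndufs3, a scaffold of the earliest Q module intermediate, measured 74.1, 73.4 and 79.0 FPKM in Induced cells, against 71.3, 71.0 and 76.4 FPKM in Initial cells. It was higher in all 3 mice, but the groups overlapped and 0.05 (SE 0.06) did not pass the test (adjusted p = 0.498). With that length trend removed, Ndufv2 passed and the other 5 described here did not.

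**Figure D3:**
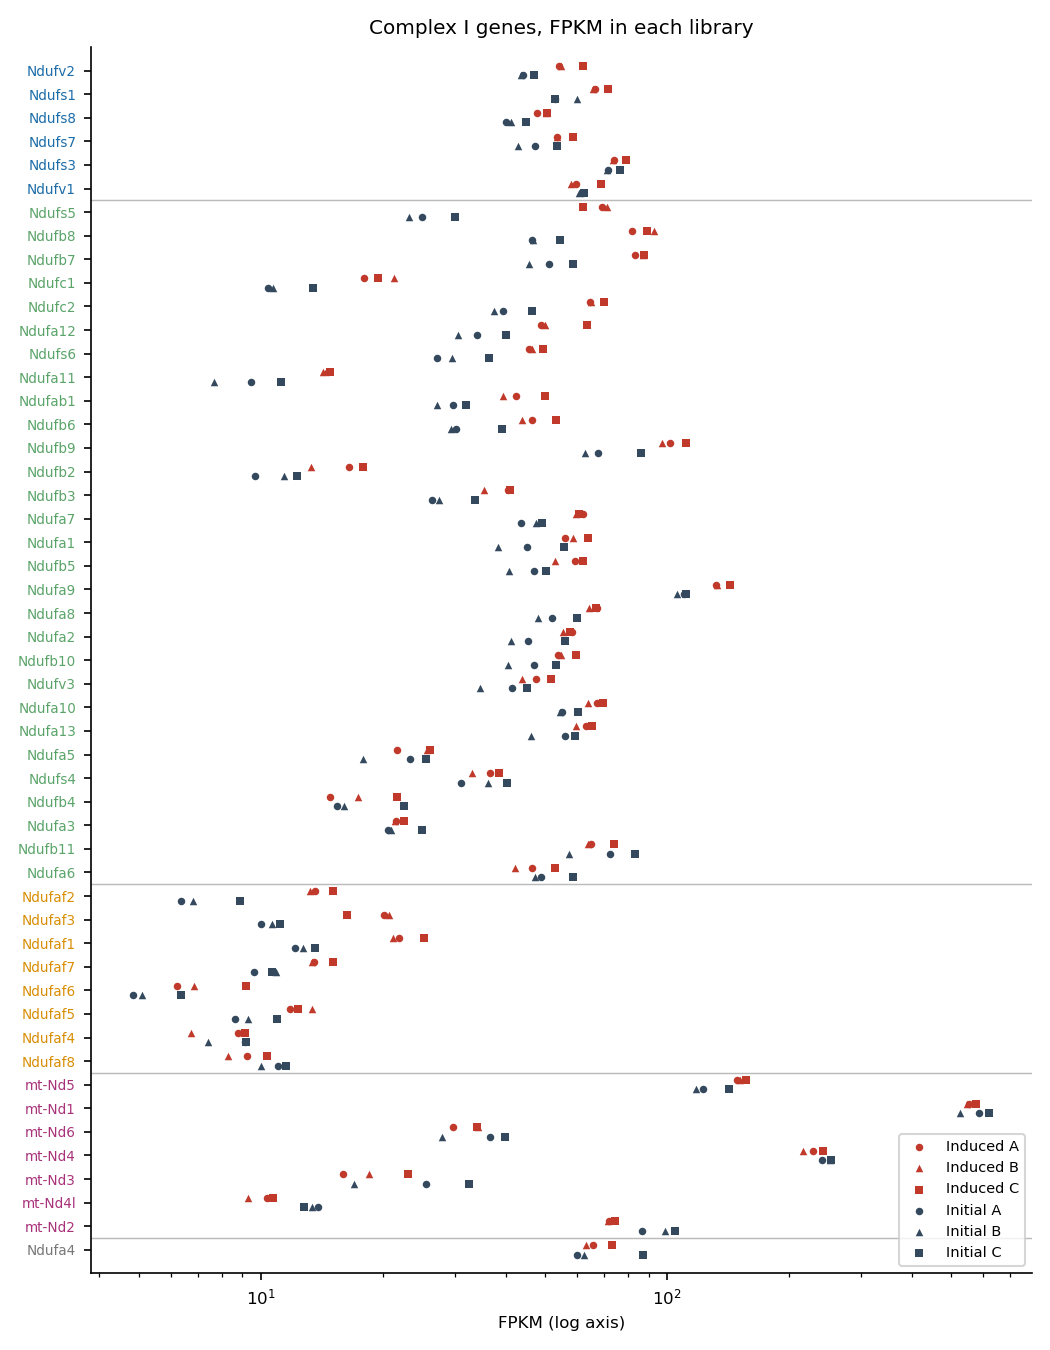
FPKM (log axis) of 51 tested complex I genes in each library, in the order core, accessory, assembly, mt-Nd and Ndufa4 from top to bottom; red marks are Induced and dark marks Initial, with circle, triangle and square for mice A, B and C. Marks of the groups are well apart for Ndufs5, with 62.2 to 71.0 FPKM in Induced cells against 23.1 to 30.1 FPKM in Initial cells, and interleave for genes such as Ndufb4.

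Of the 29 accessory subunits, 20 rose, none fell and 9 did not pass the test, with a median fold change of 0.36 and a range of -0.12 to 1.35. The rises make 69.0% of them, where 37.3% of all tested genes rose and 33.1% fell. In 21 of the 29 all 3 Induced values lay above all 3 Initial values, where this held for 40.0% of all tested genes.

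The largest rise was that of Ndufs5, a small subunit with paired cysteines on the intermembrane side of the proximal arm. It measured 69.0, 71.0 and 62.2 FPKM in Induced cells, against 24.9, 23.1 and 30.1 FPKM in Initial cells. No pair of values came near, and the fold change was 1.35 (SE 0.10, adjusted p = 1.26e-05), between 1.23 and 1.57 across all alternatives run. The gene lies on chromosome 4 from 123712710 to 123718202 on the minus strand in GRCm38. Ndufb8, a distal arm subunit whose protein is widely used in blots as a sign of assembled complex I, measured 81.9, 93.0 and 89.3 FPKM in Induced cells, against 46.5, 46.7 and 54.6 FPKM in Initial cells. The groups were apart, with a fold change of 0.83 (SE 0.09, adjusted p = 5.99e-05). Ndufb7, another distal arm subunit with paired cysteines, measured 83.4, 87.4 and 87.6 FPKM in Induced cells, against 51.1, 45.6 and 58.7 FPKM in Initial cells. Its groups were apart, with a fold change of 0.73 (SE 0.09, adjusted p = 0.000199). Ndufc1, a short membrane subunit of the proximal arm, was much less abundant, with 17.9, 21.3 and 19.4 FPKM in Induced cells, against 10.4, 10.7 and 13.5 FPKM in Initial cells. It rose by 0.72 (SE 0.11, adjusted p = 0.000645) with no overlap.

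The other 16 accessory subunits that rose had fold changes of 0.24 to 0.68. Their means spanned 14.5 to 136 FPKM in Induced cells and 9.46 to 109 FPKM in Initial cells. Ndufa9, a nucleotide-binding subunit where the arms join, was at the top of both ranges with 136 ± 6.35 FPKM in Induced cells and 109 ± 2.79 FPKM in Initial cells (SD, n = 3 each). Ndufa11, a membrane subunit, was at the bottom with 14.5 ± 0.31 FPKM in Induced cells and 9.46 ± 1.78 FPKM in Initial cells. Ndufb10 rose only just (0.26, SE 0.10, adjusted p = 0.0491) and lost its call in 10 of 18 alternatives. Ndufa1 lost its call in 7 of them. Both lost it without Induced A, Induced B, Induced C, Initial A or Initial B, with values down to 0.16 for Ndufb10 and 0.24 for Ndufa1 and adjusted p of 0.0533 to 0.136. Without Induced A, calls were lost for Ndufa10, a kinase-like subunit of the proximal arm (0.23, adjusted p = 0.0523), and for Ndufb5, a distal arm subunit (0.32, adjusted p = 0.0507). With the length trend removed, Ndufa10 (adjusted p = 0.195) and Ndufa8, a proximal arm subunit with paired cysteines (adjusted p = 0.0616), lost theirs.

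The other 9 accessory subunits did not pass the test. Ndufs4, at the seam of the N and Q modules and known from its knockout mouse as a model of Leigh syndrome, had 36.1 ± 2.74 FPKM in Induced cells and 35.9 ± 4.68 FPKM in Initial cells (SD, n = 3 each). Its difference was 0.01, with a 95% interval of -0.23 to 0.26. Ndufa6, a LYR-motif subunit that binds the acyl carrier protein Ndufab1, had 47.2 ± 5.34 FPKM in Induced cells and 51.6 ± 6.26 FPKM in Initial cells, with a difference of -0.12 (interval -0.38 to 0.13). With the length trend removed it was 0.16 and passed as a rise (adjusted p = 0.0451). Ndufab1 itself rose, with 44.0 ± 5.35 FPKM in Induced cells and 29.6 ± 2.42 FPKM in Initial cells (0.55, SE 0.10, adjusted p = 0.00154). Ndufb11, a distal arm subunit, had 67.6 ± 5.43 FPKM in Induced cells and 71.0 ± 13.2 FPKM in Initial cells (interval -0.37 to 0.25), and 117 bases of an exon are shared with Rbm10 on the other strand. Ndufa3, a short proximal arm subunit, had 21.8 ± 0.63 FPKM in Induced cells and 22.1 ± 2.44 FPKM in Initial cells (interval -0.22 to 0.19). Ndufa5, a Q module subunit, had 24.4 ± 2.43 FPKM in Induced cells and 22.2 ± 3.92 FPKM in Initial cells (interval -0.17 to 0.46).

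A further 3 missed the threshold narrowly, each higher in all 3 mice. Ndufa2, a thioredoxin-like N module subunit, had 57.1 ± 1.47 FPKM in Induced cells and 47.6 ± 7.71 FPKM in Initial cells (0.27, adjusted p = 0.0564). Ndufv3, a small N module subunit with tissue-specific isoforms, had 47.8 ± 3.96 FPKM in Induced cells and 40.5 ± 5.28 FPKM in Initial cells (0.24, adjusted p = 0.0759). Ndufa13, also called GRIM-19 and known in human cells from interferon-induced death, had 62.7 ± 2.79 FPKM in Induced cells and 53.9 ± 6.85 FPKM in Initial cells (0.22, adjusted p = 0.0722). All 3 passed with the mouse as a block, and also without Initial C with values of 0.39, 0.32 and 0.30 in that order. The remaining subunit that did not pass, Ndufb4, had 17.9 ± 3.43 FPKM in Induced cells and 18.0 ± 3.89 FPKM in Initial cells (interval -0.41 to 0.40). Its printed promoter holds the NRF-1 letters at more places than the others shown.

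The nuclear subunits were also set out by place in the enzyme. Of these, 9 of 11 in the distal arm rose (median fold change 0.47) and 6 of 8 in the proximal arm (0.34). In the N module 5 of 10 rose (0.28), and in the Q module 2 of 5 (0.21). Both junction subunits, Ndufa9 and Ndufa11, rose. None of these nuclear subunits fell, while 37.3% of all tested genes rose and 33.1% fell. The mt-Nd subunits are left out of these modules and are described below, with 1 rise and 2 falls. Differences between modules were not tested, and the modules differ in how many core and accessory subunits they hold.

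The 36 nuclear subunits summed to 2013, 1991 and 2175 FPKM in Induced A, B and C, against 1570, 1498 and 1776 FPKM in Initial A, B and C. The sums did not overlap. The spread of levels among subunits stayed wide, with a coefficient of variation over the 36 means of 46.2% in Induced cells and 47.7% in Initial cells. The order of subunits by level was largely shared between the groups (Spearman's rho 0.854 across the 36 genes, which are not independent replicates and share all libraries). Across the same genes the fold change had a rho of -0.289 with the Initial level and of -0.292 with transcript length. Of the 36, 26 have a median transcript length of 500 to 1000 bases, and these had a median fold change of 0.35, against 0.12 over the 2092 tested genes of that length. In that length class 41.4% of all tested genes rose. The part of transcript length in the values was not tested further.

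**Figure D4:**
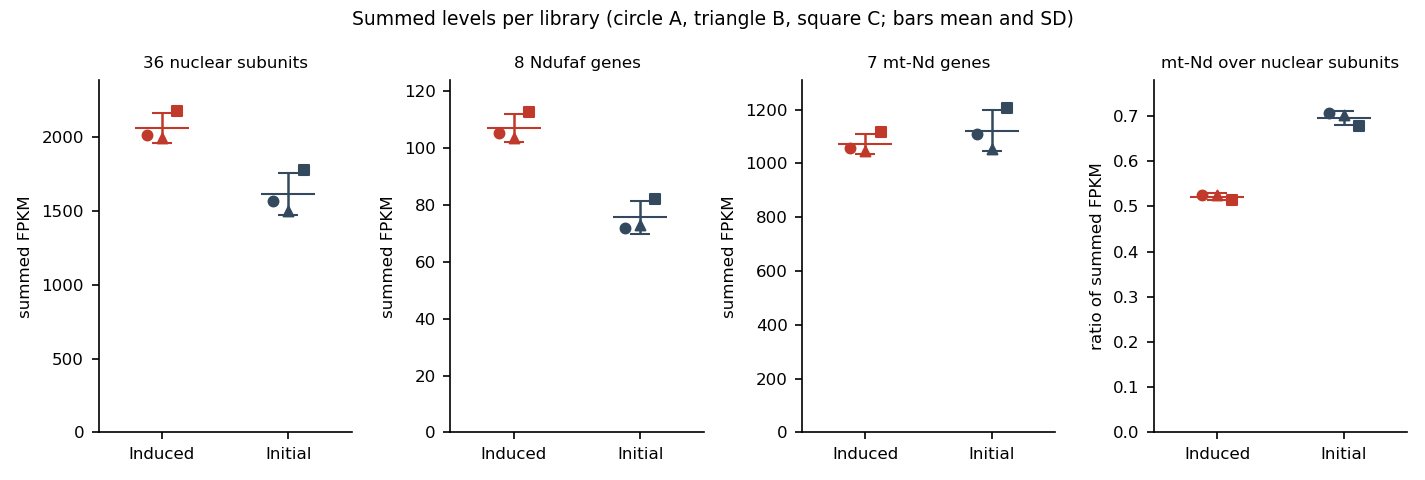
Summed FPKM per library of the 36 nuclear subunits, the 8 Ndufaf genes and the 7 mt-Nd genes, and the ratio of mt-Nd to nuclear subunit sums, with Induced left of Initial; circle, triangle and square are mice A, B and C and bars show mean and SD. The nuclear and Ndufaf sums are higher in all 3 Induced libraries, the mt-Nd sums overlap, and the ratio is 0.513 to 0.526 in Induced libraries against 0.678 to 0.707 in Initial libraries.

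The mt-Nd transcripts together amounted to 1059, 1047 and 1116 FPKM in Induced cells, against 1110, 1053 and 1205 FPKM in Initial cells, and these sums overlapped. Set against the nuclear subunits, they gave a ratio of 0.526, 0.526 and 0.513 in Induced cells, against 0.707, 0.703 and 0.678 in Initial cells. The ratio does not depend on how whole libraries are scaled, and the groups did not overlap. On the log2 scale the ratio differed by -0.42, and by -0.43 to -0.40 when any of the 6 libraries was left out. No test is given for it.

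Of the 7 mt-Nd genes, 1 rose, 2 fell and 4 did not pass the test, where 37.3% of all tested genes rose and 33.1% fell. They had a median fold change of -0.12 that became 0.11 with scaling to the CD3 chains and Trdc. Relative to the median of all tested genes it was -0.14 as deposited and -0.12 under that scaling, but -0.0015 with the length trend removed. All lie on the mitochondrial genome (MT) and, apart from mt-Nd6, on its plus strand in the annotation; those 6 are cut from a shared polycistronic RNA.

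The proton-pumping subunits mt-Nd2, mt-Nd4 and mt-Nd5 are related in sequence to antiporters, and their calls differed, though differences between these genes were not tested. The mt-Nd5 transcript, at MT 11742 to 13565, measured 148, 151 and 156 FPKM in Induced cells, against 122, 118 and 142 FPKM in Initial cells. The groups did not overlap and the fold change was 0.25 (SE 0.08, adjusted p = 0.0224). The call was lost without Induced A, Induced B, Initial A or Initial B and with scaling factors of the TMM kind; without a library the value was 0.20 to 0.27 and the adjusted p 0.0522 to 0.0749. The mt-Nd2 transcript, at MT 3914 to 4951, measured 71.8, 71.6 and 74.4 FPKM in Induced cells, against 86.6, 98.7 and 104 FPKM in Initial cells. All Induced values lay below all Initial values, and the fold change was -0.40 (SE 0.08, adjusted p = 0.00228), which did not pass with scaling to the CD3 chains and Trdc (adjusted p = 0.0711). The mt-Nd4 transcript, at MT 10167 to 11544, measured 229, 216 and 242 FPKM in Induced cells, against 240, 252 and 252 FPKM in Initial cells. It was lower in all 3 mice but the groups overlapped (-0.12, SE 0.07, adjusted p = 0.149). It passed as a fall with scaling factors of the TMM kind (-0.19, adjusted p = 0.0206) and with the length trend removed (-0.24, adjusted p = 0.00603).

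The subunits around the quinone channel are mt-Nd1, mt-Nd3, mt-Nd4l and mt-Nd6. The mt-Nd1 transcript, at MT 2751 to 3707 and the most abundant of all complex I transcripts per length, measured 554, 546 and 576 FPKM in Induced cells, against 585, 527 and 620 FPKM in Initial cells. The groups overlapped; the fold change was -0.04 as deposited (SE 0.08, adjusted p = 0.619), 0.18 with scaling to the CD3 chains and Trdc (adjusted p = 0.0402) and -0.20 with the length trend removed (adjusted p = 0.0226), so that it passed in opposite directions under these settings. The mt-Nd3 transcript, at MT 9459 to 9806, encodes a subunit whose loop moves when the enzyme switches between active and resting states. It measured 15.9, 18.5 and 23.0 FPKM in Induced cells, against 25.5, 16.9 and 32.5 FPKM in Initial cells. Initial B lay among the Induced values, and -0.33 (SE 0.24) did not pass (adjusted p = 0.241), though without Initial B it was -0.58 (adjusted p = 0.0246). The mt-Nd6 transcript, at MT 13552 to 14070 on the opposite strand, measured 29.7, 34.2 and 34.1 FPKM in Induced cells, against 36.6, 27.9 and 40.0 FPKM in Initial cells. Its groups overlapped (-0.08, SE 0.13, adjusted p = 0.614), and its annotated end shares 14 bases with mt-Nd5, so a few fragments may be counted for either. Whether counting used strand is not stated, so RNA from the other strand over mt-Nd6 may also be counted.

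The mt-Nd4l transcript, at MT 9877 to 10173, was the scarcest mt-Nd gene, with 10.3, 9.28 and 10.7 FPKM in Induced cells, against 13.8, 13.3 and 12.8 FPKM in Initial cells. All Induced values were lower, and the fold change was -0.37 (SE 0.08, adjusted p = 0.00419). The call was lost with scaling to the CD3 chains and Trdc, and the value turned to 0.12 (adjusted p = 0.436) with the length trend removed. Its length is 297 bases, and the 401 tested genes below 500 bases had a median fold change of -0.48, with 22.2% risen. That length class also holds mt-Nd3 and mt-Atp8. In mammals mt-Nd4l and mt-Nd4 are read from a shared bicistronic RNA and their frames overlap by 7 bases, yet mt-Nd4 was listed 22.7 times as high in Induced cells and 18.7 times as high in Initial cells. The likewise bicistronic mt-Atp6 and mt-Atp8, genes of ATP synthase, gave ratios of 23.9 in Induced cells and 16.8 in Initial cells. Genes on a shared RNA were thus listed at unequal levels per length in both groups.

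Of the other 6 protein-coding genes of the mitochondrial genome, 1 rose, 2 fell and 3 did not pass, where 37.3% of all tested genes rose and 33.1% fell. The rise was that of mt-Co1, the catalytic subunit of complex IV, with 1047 ± 11.3 FPKM in Induced cells and 755 ± 44.2 FPKM in Initial cells (SD, n = 3 each; 0.47, SE 0.07, adjusted p = 0.000368). The larger fall was that of mt-Atp8, with 42.4 ± 6.53 FPKM in Induced cells and 72.5 ± 14.7 FPKM in Initial cells (-0.76, SE 0.16, adjusted p = 0.00376). Removal of the length trend turned it to 0.05. All mitochondrial genes took 1.3 to 1.32% of summed FPKM in Induced libraries and 1.18 to 1.28% in Initial libraries.

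Of the 8 Ndufaf assembly factors, 5 rose (62.5%), none fell and 3 did not pass, where 37.3% of all tested genes rose and 33.1% fell. Their median fold change was 0.39. Their sum was 107.1 ± 4.82 FPKM in Induced cells and 75.6 ± 5.76 FPKM in Initial cells (SD, n = 3 each). Ndufaf2, which takes the place of its relative Ndufa12 until the N module docks, measured 13.6, 13.2 and 15.0 FPKM in Induced cells, against 6.37, 6.81 and 8.89 FPKM in Initial cells. The groups were apart, with a fold change of 0.85 (SE 0.12, adjusted p = 0.000409). Ndufa12, the subunit that replaces it, also rose, with 54.1 ± 8.19 FPKM in Induced cells and 34.9 ± 4.77 FPKM in Initial cells (0.62, SE 0.13, adjusted p = 0.00323). Ndufaf3, a factor of Q module assembly, measured 20.1, 20.6 and 16.3 FPKM in Induced cells, against 10.0, 10.6 and 11.1 FPKM in Initial cells. The groups were apart, with a fold change of 0.78 (SE 0.10, adjusted p = 0.00022), and 48 bases of an exon are shared with Impdh2 on the other strand.

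Some partners among the factors had different calls, and differences between partners were not tested. Ndufaf4, the partner of Ndufaf3 in human cells, had 8.21 ± 1.3 FPKM in Induced cells and 8.57 ± 0.99 FPKM in Initial cells (-0.06, interval -0.36 to 0.24). Ndufaf5, which hydroxylates Ndufs7 in human cells, rose by 0.35 (SE 0.10, adjusted p = 0.0148), a call lost without Induced B (0.30, adjusted p = 0.0551) and with the length trend removed (adjusted p = 0.0867). Its partner Ndufaf8 had 9.28 ± 1.03 FPKM in Induced cells and 10.9 ± 0.79 FPKM in Initial cells (-0.21, interval -0.44 to 0.03), and it was lower in all 3 mice; without Induced C it fell by 0.28 (adjusted p = 0.0357), and it also passed as a fall with scaling factors of the TMM kind and with the length trend removed. The other 2 that rose were Ndufaf1, a factor of membrane arm assembly (0.78, SE 0.09, adjusted p = 9.4e-05), and Ndufaf7, a methyltransferase of early assembly (0.39, SE 0.08, adjusted p = 0.00357). The last, Ndufaf6, was higher in all 3 mice but did not pass (0.38, SE 0.15, adjusted p = 0.0541). It passed in 7 of 18 alternatives. These were the mouse as a block and scaling by sum, nuclear sum, quantile or the CD3 chains and Trdc. The others left out Induced A or Initial C, with a value of 0.48 in each.

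Among 13 tested assembly factors with other names, 8 rose (61.5%) and 1 fell, where 37.3% of all tested genes rose and 33.1% fell. The largest rise was that of Tmem126b, which works with Ndufaf1 in the complex that builds the proximal arm, with 15.8 ± 0.41 FPKM in Induced cells and 6.56 ± 0.41 FPKM in Initial cells (SD, n = 3 each; 1.15, SE 0.08, adjusted p = 6e-06). Among other members of that complex, Acad9 and Timmdc1 rose. Ecsit (0.02, adjusted p = 0.757) and Tmem186 (0.16, adjusted p = 0.187) did not pass. The fall was that of Atp5sl, an older name of the distal arm factor Dmac2, with 23.3 ± 0.81 FPKM in Induced cells and 33.3 ± 1.07 FPKM in Initial cells (-0.50, SE 0.06, adjusted p = 0.000206).

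Of the genes counted apart, Ndufa4 was the only one tested, and it did not pass. It measured 65.8, 63.2 and 73.0 FPKM in Induced cells, against 59.9, 62.5 and 87.1 FPKM in Initial cells. Initial C was the highest and the groups overlapped (-0.03, SE 0.14, adjusted p = 0.845). Ndufa4l2, which is induced by hypoxia-inducible factor in many cell types, was listed at 0.0566 FPKM in Induced A and 0.111 FPKM in Induced B and at 0 in the other 4 libraries. Its exon shares 32 bases with Shmt2 on the other strand.

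Of 19 genes for proteins known to act on the replication and transcription of mitochondrial DNA or on RNA stability inside the mitochondrion, 7 rose (36.8%) and 5 fell. The share that rose is close to the background, since 37.3% of all tested genes rose and 33.1% fell. The largest rise was that of Mterf1a, which binds mitochondrial DNA (0.87, SE 0.12, adjusted p = 0.000288). The largest fall was that of Polg2, the accessory subunit of mitochondrial DNA polymerase, with 5.42 ± 0.36 FPKM in Induced cells and 22.3 ± 1.80 FPKM in Initial cells (SD, n = 3 each; -1.86, SE 0.09, adjusted p = 1.03e-06). Tfam, which packages mitochondrial DNA, and Tfb2m, which opens its promoters, also fell, by 0.44 and 0.60 on the log2 scale.

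Of 8 tested nuclear regulators of mitochondrial genes, 1 rose (12.5%) and 2 fell, where 37.3% of all tested genes rose and 33.1% fell. The rise was that of Pprc1, a relative of PGC-1α (0.50, SE 0.10, adjusted p = 0.00217), and the larger fall that of Ppargc1b, which encodes PGC-1β (-0.84, SE 0.14, adjusted p = 0.00096). Nrf1, whose letters are shown in the promoters above, had 31.7 ± 1.11 FPKM in Induced cells and 33.3 ± 2.05 FPKM in Initial cells (SD, n = 3 each; -0.07, adjusted p = 0.398).

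Other routes of electrons into ubiquinone, listed together with NADH shuttles, were mixed. Of the 4 complex II subunits, which pass electrons from succinate, 2 rose and 1 fell, where 37.3% of all tested genes rose and 33.1% fell. Sdhd, a membrane anchor, rose by 0.59 (SE 0.08, adjusted p = 0.000306). Sdha, the catalytic subunit, had 95.6 ± 8.38 FPKM in Induced cells and 111 ± 4.64 FPKM in Initial cells and fell by 0.21 (SE 0.08, adjusted p = 0.0396), a call lost with the mouse as a block (adjusted p = 0.0549). It was also lost with no filter on low values (adjusted p = 0.0712), with ordinary shrinkage (adjusted p = 0.0624) and without Induced A, Induced B, Initial A or Initial B (-0.16 to -0.20, adjusted p = 0.0927 to 0.144), and the value was 0.01 with scaling to the CD3 chains and Trdc. Of 9 tested NADH shuttles and alternative electron donors, 5 rose (55.6%) and 1 fell, against the same shares of all tested genes. Among the donors to ubiquinone, Dhodh rose, Sqrdl fell, Gpd2 and Etfdh did not pass and Prodh was not tested. The other rises were those of malate-aspartate shuttle genes, Got2, Slc25a11, Slc25a12 and Slc25a13, and Mdh2 of that shuttle did not pass. The largest rise was that of Got2, the mitochondrial aspartate aminotransferase of the malate-aspartate shuttle, with 105 ± 21.1 FPKM in Induced cells and 53.1 ± 8.27 FPKM in Initial cells (SD, n = 3 each; 0.96, SE 0.16, adjusted p = 0.00117). The fall was that of Sqrdl, the sulfide oxidising enzyme, with 0.26 ± 0.06 FPKM in Induced cells and 6.08 ± 0.84 FPKM in Initial cells (-2.48, SE 0.12, adjusted p = 1.22e-06), where the macrophage marker sums given above differ between the groups in the same direction.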

How the data were processed

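The deposited values are FPKM per gene and library, computed by the authors with Cuffdiff from VAHTS mRNA-seq v2 libraries read on an Illumina HiSeq, per the labels' protocols. The submitters' processing notes name CASAVA, HISAT2 2.0.5, Cuffdiff 1.3.0 and 2.2.1 and the build mm9. Whether counting used strand is not stated in them. The loci of the deposited tables do not carry mm9 positions: of 26669 identifiers found in GENCODE for GRCm38, 90.5% lie inside the listed span, so that annotation gives the coordinates.

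Genes not listed for a library counted as 0. Genes with FPKM of at least 1 in at least 3 of 6 libraries entered the limma test (limma 3.58.1, R 4.3.3) as log2(FPKM + 1), with trend and robust shrinkage, two-sided and unblocked. The pseudocount understates changes of low genes. Self-tests were run on simulated data. Depth was estimated from steps in low values, of which 40.4 to 46.9% lay within 0.15 of a whole step where chance gives 30%, so it is rough; counting intervals cover counting error only. Tables used Python 3.11.15.

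The mouse letters in the labels pair the libraries by animal. Deviations of same-mouse libraries correlated at 0.0393, 0.0307 and 0.1308 for A, B and C, and those of different mice at -0.1324 to 0.0988. With the mouse as a block, 35 complex I genes rose and 2 fell; Ndufa2, Ndufa13, Ndufaf6, Ndufs7 and Ndufv3 were the added rises.

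Members, lists and tests were chosen with earlier results of these data known. Values in every library are given for the mt-Nd genes, nuclear core subunits (1 is not reported here on its own), Ndufa4, Ndufa4l2, the 4 largest accessory rises and the 2 largest Ndufaf rises; members that did not pass are named at a mean FPKM of at least 20, as are the largest rise and fall of each companion list. Other genes named were chosen after their values were seen. Alternatives changed the pseudocount (0.1, 5), the filter (none, FPKM 5), the scaling (sum, nuclear sum, TMM-like, quantile, CD3 chains with Trdc), the block, the shrinkage (ordinary) or left a library out; removal of the length trend was added after the data were seen.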

Additional observations from a re-analysis of the deposited data

How the results depend on the processing

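Over the 18 alternatives, 20 of the 30 rises, 0 of the 2 falls and 7 of the 20 values that did not pass kept their side of the threshold throughout. Rises numbered 25 to 39 among complex I genes, with 26 under TMM-like scaling, 39 when scaled to the CD3 chains and Trdc, and 26 with the length trend removed. Falls numbered 4, 0 and 4 under those settings. All tested genes shifted too: 7968, 8063 and 7978 passed in that order, against 7931 as deposited. Rises made 47.6%, 66.8% and 50.1% of those calls, against 52.9% as deposited. Core subunits that rose numbered 7 with CD3 scaling and 1 with the length trend removed. Assembly factors that fell numbered 1 under TMM-like scaling, 1 with the length trend removed, and 0 to 1 when each library was left out. The mt-Nd genes that rose numbered 0 under TMM-like scaling, 2 with CD3 scaling and 0 to 1 when each library was left out; those that fell numbered 0 with CD3 scaling. Removing the length trend turned the log2 fold changes of Ndufa6 to 0.16, mt-Nd4l to 0.12 and mt-Atp8 to 0.046, and CD3 scaling turned mt-Nd1 to 0.18 and Sdha to 0.012. Beyond the alternatives' own construction, the cause was not tested. The mouse as a replicate block gave 35 rises and 2 falls. Depth limits the scarcest genes most, with a counting coefficient of variation up to 12.4%.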

Other observations

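A grouping by import route, chosen after the values were seen and given with no test, joins 4 intermembrane-space subunits with paired cysteines, Ndufs5, Ndufb7, Ndufa8 and Ndufb10, with Chchd4, which folds such proteins on import, and its partner Aifm1. Because the genes were put together with their values known, a shared direction among them is no result. Chchd4 had 6.91 ± 0.30 FPKM in Induced cells and 4.11 ± 0.61 FPKM in Initial cells (SD, n = 3 each; 0.64, SE 0.11, adjusted p = 0.00117 by limma). Aifm1 had 33.3 ± 0.28 FPKM in Induced cells and 19.9 ± 1.06 FPKM in Initial cells (0.71, SE 0.07, adjusted p = 3.34e-05). The fold changes of the subunits ran from 0.26 for Ndufb10, a call lost in 10 of 18 alternatives, to 1.35 for Ndufs5, and Ndufa8 lost its call with the length trend removed (adjusted p = 0.0616).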
